A study of Mus musculus with 6 samples.

Results

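The 41 genes described here are the glucose and lactate transporters, the enzymes of glycolysis, 3 regulators of its flux, the oxygen-sensing genes and a set of hypoxia-inducible genes. They were chosen by name from the 55401 genes of a count table of whole mouse embryos at E10.5 (embryonic day), kept on a C57BL/6J background. WT embryos carried the unmodified *Igf2* locus and were littermates of 5C embryos, which carried 5 added *Mir483* copies in tandem within their own *Igf2* locus, inherited from the father. The array was inserted in embryonic stem cells, was selected in colonies grown from single cells, and was expressed under the control of *Igf2*, not in a chosen cell type. The study describes 5C embryos as growth-restricted and arrested before birth. Each genotype had 3 libraries, and each library was a pool of 2 embryos, so that variation between single embryos was not measured. Nothing in the labels said that equal replicate numbers marked littermates. The comparison asked whether the genes of glucose use and of the response to low oxygen differed in level between 5C and WT embryos.

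As background, cells take up glucose through transporters of the Slc2a family and split it in glycolysis to pyruvate, which is oxidised in mitochondria or reduced to lactate and exported through transporters of the Slc16a family. Early embryos rely strongly on glycolysis. When oxygen falls, prolyl hydroxylases of the Egln family slow down, the alpha subunits of the hypoxia-inducible factors (Hif1a and Epas1) are no longer marked for destruction through Vhl, and with their partner Arnt they bind DNA at a short core sequence and raise the transcription of most genes named here. The level of *Hif1a* mRNA therefore does not measure the amount of its protein.

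Library totals ranged from 6357343 to 19151368 counts. The smallest level this depth could show, 3 counts of the total, was 0.157 to 0.472 CPM (a count scaled by its library). The *Mir483* hairpin had 0.319 to 0.577 CPM in WT and 2.56 to 5.15 CPM in 5C libraries, in the direction of the labels. The libraries differed in ways that genotype did not explain. Replicate 2 of each genotype had 0.944 CPM (WT) and 0 CPM (5C) of the Y-linked gene *Ddx3y*, against 41.6 to 55.9 CPM in the other 4 libraries. The Y-linked *Kdm5d*, *Eif2s3y* and *Uty* divided in the same way, at 0 to 1.37 CPM against 25.3 to 67.7 CPM. *Xist* was highest in these 2 libraries, at 849 (WT) and 914 CPM (5C), against 495 to 692 CPM in the other 4. The study describes all pools as male, but these 2 held almost no Y-linked RNA. The summed level of 10 yolk sac endoderm markers was 6358 CPM in WT replicate 1 and 1284 CPM in 5C replicate 3, against 180.2 to 527 CPM in the other 4 libraries. *Tbx4*, a hindlimb and allantois gene on a list of 10 markers of embryonic tissues of which none was at 0, had 399 CPM in WT replicate 3 and 5.48 to 9.39 CPM elsewhere. In such bulk samples, fewer cells that express a gene and less RNA per cell cannot be told apart.

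The core sequence that hypoxia-inducible factors recognise, ACGTG or GCGTG, was searched on both strands from 250 bases before to 50 bases after the RefSeq transcript start (GRCm38.p6). Entries were found for 37 of the 41 genes, with 54 promoters, and 34 of these 37 genes held at least 1 match. The following windows come from genes whose values are given below, with the match in capitals, in the direction of the gene; a match read on the opposite strand appears as CACGT.

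Slc2a1: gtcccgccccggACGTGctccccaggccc

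Pgam1: cgctccttgcttACGTGcgctccgtgact

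Ldha: cggcccagcctaCACGTgggttcccgcac

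Egln1: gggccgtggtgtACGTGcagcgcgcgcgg

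Bnip3: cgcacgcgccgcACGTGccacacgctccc

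Mxi1: cctcggcacccgACGTGcactggcggggg

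P4ha1: tgtgacagagcgCACGTagcgagggctgc

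Pdk1: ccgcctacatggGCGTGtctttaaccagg

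These windows lie at chr4:119108697-119108725 (*Slc2a1*, plus strand), chr19:41911745-41911773 (*Pgam1*, plus), chr7:46845744-46845772 (*Ldha*, plus), chr8:124949306-124949334 (*Egln1*, minus), chr7:138909597-138909625 (*Bnip3*, minus), chr19:53329335-53329363 (*Mxi1*, plus), chr10:59323268-59323296 (*P4ha1*, plus) and chr2:71873134-71873162 (*Pdk1*, plus). In *Ldha* and *Bnip3* the match is part of the palindrome CACGTG, which counts on both strands. For *Pdk1*, whose promoter held GCGTG but not ACGTG, the former is shown. ACGTG was present in 53.7% of the 54 promoters of the set, against 19.6% of all 32851 promoters in the table and 24.6% of the 14731 promoters of tested genes. GCGTG was present in 55.6%, against 32.4% and 48.8%. Both sequences contain a CpG, and the median promoter of the set held 21 CpG, against 7 among all promoters and 20 among those of tested genes. Among the 14 promoters of the hypoxia-inducible genes 64.3% held ACGTG, and among the 27 of the glycolytic enzymes 44.4%. A match is a run of letters and does not show binding.

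The 2 microRNAs of the inserted gene were compared with the 3′ UTRs of the set. Their mature RefSeq sequences, on the minus strand of chromosome 7, are given with the seed (bases 2 to 8) in capitals.

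miR-483-3p: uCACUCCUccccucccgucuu

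miR-483-5p: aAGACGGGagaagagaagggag

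miR-483-3p lies at chr7:142654932-142654952 and miR-483-5p at chr7:142654968-142654989 (GRCm38.p6). The reverse complement of the 3p seed, AGGAGTG, occurred in the 3′ UTRs of *Hk1*, *Pgam1*, *Vhl* and *Ddit4*, which is 4 of 41 (9.76%), against 2209 of 21039 genes with an annotated 3′ UTR. The reverse complement of the 5p seed, CCCGTCT, occurred in *Egln1* alone, at 2 places, which is 2.44% of the set against 2.66% of all genes. The median 3′ UTR was 1263 bases long in the set and 934 over all of them. The matches in the genes whose values are given below, in the direction of the transcript and with the match in capitals, are these.

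Hk1: ttgggaaatggAGGAGTGagttcaagtcc

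Pgam1: cagtataataaAGGAGTGatgtgcaata

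Egln1: gtttttcttggCCCGTCTctcagtgattc

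*Hk1* had a log2 fold change of -0.13 and *Vhl* of -0.09. *Pgam1*, *Ddit4* and *Egln1* had values above 0, of 0.44, 0.15 and 0.20. The genes with a seed match lay on both sides of 0, with 3 of the 5 above it. Over all genes tested, 50.7% were below 0. *Hk1*, *Vhl* and *Ddit4* overlapped between genotypes. Whether the microRNAs act on these genes was not tested.

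Levels of different genes were compared per length, as reads per kilobase of annotated exon, scaled to CPM (RPKM), averaged over the 6 libraries. The most abundant were *Ldha* at 205 RPKM (lactate dehydrogenase A, which reduces pyruvate to lactate), *Pkm* at 187 (pyruvate kinase, which makes pyruvate), *Tpi1* at 122 (triosephosphate isomerase) and *Aldoa* at 118 (the aldolase of muscle and embryo). These were the 4 genes above 100 RPKM. *Slc2a1*, the widespread glucose transporter, followed at 65.9 RPKM and *Hif1a* at 55.4 RPKM. The lowest were *Aldoc*, the brain aldolase, at 0.973 RPKM and *Car9*, a carbonic anhydrase of hypoxic tissue, at 0.166 RPKM. The plot of levels per length shows the WT and 5C points of each gene close together on this range, with the widest spread in *Adm* and *Car9*.

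**Figure D1:**
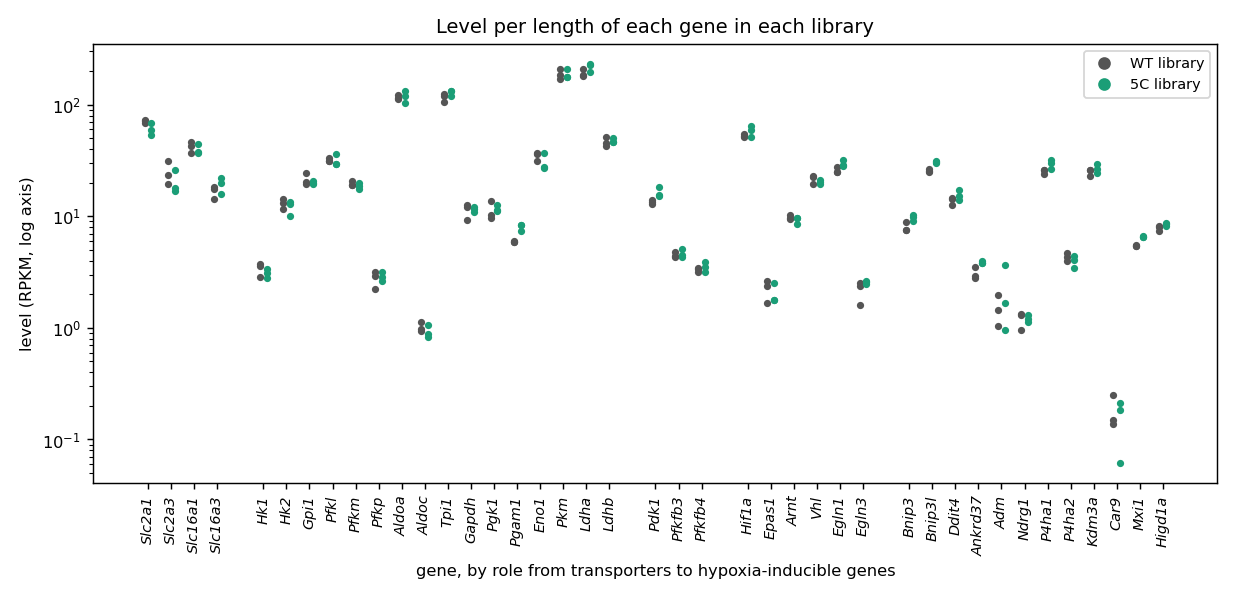
Level per length (RPKM, log axis) of the 41 genes, ordered by role from transporters to hypoxia-inducible genes, with 1 point for each WT (grey) and 5C (green) library. Levels run from 0.166 RPKM for *Car9* to 205 RPKM for *Ldha* on average, and WT and 5C points overlap or lie side by side.

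The low level of some central enzymes has to be read with their copies in mind. *Gapdh*, the glyceraldehyde phosphate dehydrogenase often used as a reference gene, measured only 11.5 RPKM, and 83.3% of its 40-base windows, the read length, also occurred in transcripts of 275 other genes, 265 of them pseudogenes. Reads from such windows match several places. The study took its gene-level counts from STAR, but how such reads were treated was not given in the sources used here. The copy with most shared windows, *Gm7336*, had 0 counts in every library. The share of shared windows was 74.8% in *Eno1* (enolase), 68.1% in *Pgk1* (phosphoglycerate kinase), 56.8% in *Bnip3*, 41.8% in *Pgam1* (phosphoglycerate mutase) and 39.0% in *Pkm*. In all, 13 of the 41 genes shared over 5% of their windows, 10 of them glycolytic enzymes, and 28 shared under 1%. Per kilobase of windows found in no other gene, *Gapdh* had 206 CPM, *Eno1* 353, *Ldha* 510.5 and *Pkm* 641, so that the order of the enzymes depended on this choice. Fold changes between genotypes compare a gene with itself and do not use these lengths.

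Between genotypes, 40 of the 41 genes had enough counts to be tested, and none differed by the study's rule (adjusted p under 0.05 and fold change over 1.5). Over all 16784 genes tested the same rule called 0 genes (0%) with edgeR, and DESeq2 called 11 genes, none of them in the set. By edgeR, 1011 genes (6.02%) had an unadjusted p under 0.05. The study itself reported genes past this rule in these embryos, most of them lower in 5C and *Igf2* among them. Why its number and the 0 given here differ was not tested. Adjusted p-values of the 40 genes, by edgeR's quasi-likelihood test, ran from 0.781 to 0.9998. Of the 40, 15 were lower and 25 higher in 5C, while 50.7% of all genes tested were lower. The median log2 fold change was 0.049, against -0.0024 over all genes tested, and 33 of the 40 genes differed by less than 1.2-fold.

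At an unadjusted p under 0.05 there were 8 of the 40 genes, 1 lower (*Slc2a1*) and 7 higher (*Bnip3l*, *Pgam1*, *Mxi1*, *Pdk1*, *P4ha1*, *Egln1* and *Bnip3*). Among all genes tested, 3.47% were lower and 2.55% higher at that level. The 3 values of one genotype lay wholly apart from the 3 of the other for 1 lower gene (*Slc2a1*) and 9 higher genes, which were these 7 with *Ankrd37* and *Higd1a*. Over all genes tested 5.1% were lower and 6.26% higher without overlap. The number of genes at that p was 5 without WT replicate 1 and 5 without 5C replicate 3. *Bnip3l*, *Pgam1*, *Mxi1* and *Pdk1* had an unadjusted p under 0.05 without each of the 6 libraries in turn, and the other 4 did not. The number was 10, all of them higher in 5C, without replicate 2 of both genotypes, where the median of the 40 was 0.148.

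**Figure D2:**
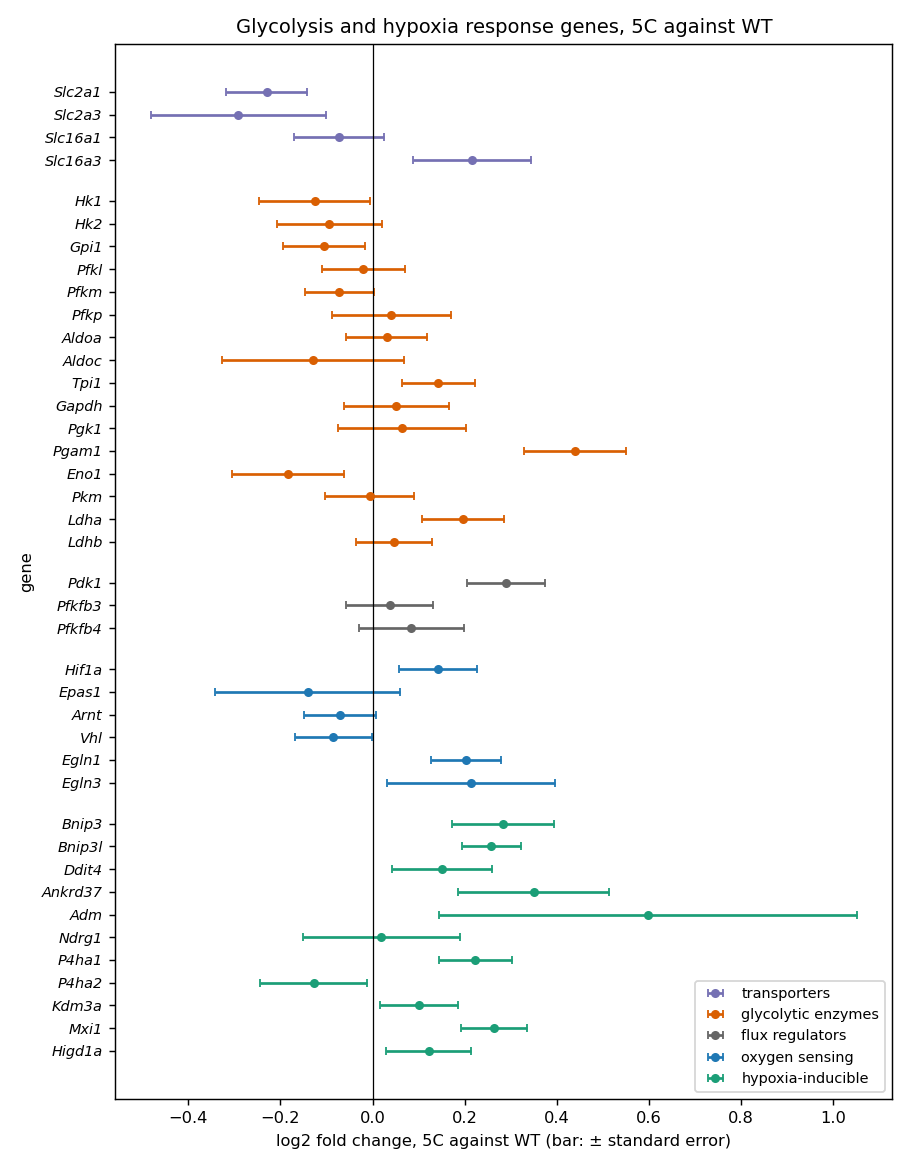
Log2 fold change of 5C against WT (horizontal axis) for the 40 genes tested, with bars of ± 1 standard error, coloured by role. Of the 40 points, 25 lie above 0, and 10 of the 11 hypoxia-inducible genes do. The roles are lists chosen with earlier results of these data known.

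**Figure D3:**
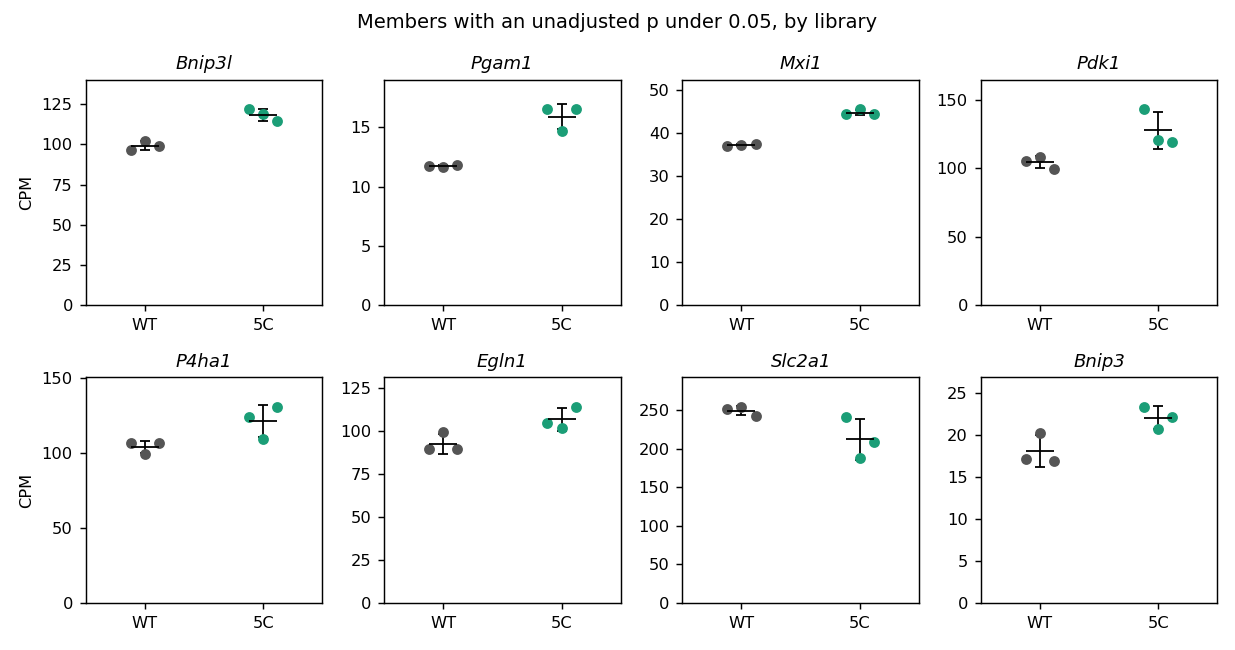
CPM (vertical axes, from 0) of the 8 genes with an unadjusted p under 0.05, with 1 point per library and the mean ± SD of 3 libraries as a line with bars. In each panel the WT and 5C points do not overlap, *Slc2a1* is lower in 5C, and no adjusted p is below 0.781.

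Of the 4 transporters, 3 were lower and 1 higher in 5C, and their median log2 fold change was -0.15. *Slc2a1*, the main glucose transporter of embryonic and red cells, measured 251, 254 and 242 CPM in WT replicates 1 to 3 and 241, 189 and 208 CPM in the 5C replicates. The highest 5C library lay just below the lowest WT library. The log2 fold change of *Slc2a1* was -0.23 ± 0.088 (SE; unadjusted p 0.0271, adjusted p 0.781). That unadjusted p was 0.0544 without WT replicate 1, 0.0632 without WT replicate 2, 0.118 without 5C replicate 2 and 0.0667 without 5C replicate 3.

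*Slc2a3*, a glucose transporter of high affinity known from neurons, trophoblast and yolk sac, measured 225, 142 and 171 CPM in WT against 129, 122 and 189 CPM in 5C. The genotypes overlapped, and the log2 fold change was -0.29 ± 0.19. Its 6 libraries stood in the same order as their summed yolk sac endoderm markers, with WT replicate 1 highest and 5C replicate 3 next. The 10 markers were detected in every library, and all 10 had lower values in 5C on average. Without WT replicate 1 the log2 fold change of *Slc2a3* was -0.09, and without 5C replicate 3 it was -0.51. *Slc16a1*, the lactate and pyruvate carrier, and *Epas1* were also highest in WT replicate 1 and second highest in 5C replicate 3. The part of yolk sac tissue in these values was not tested.

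**Figure D4:**
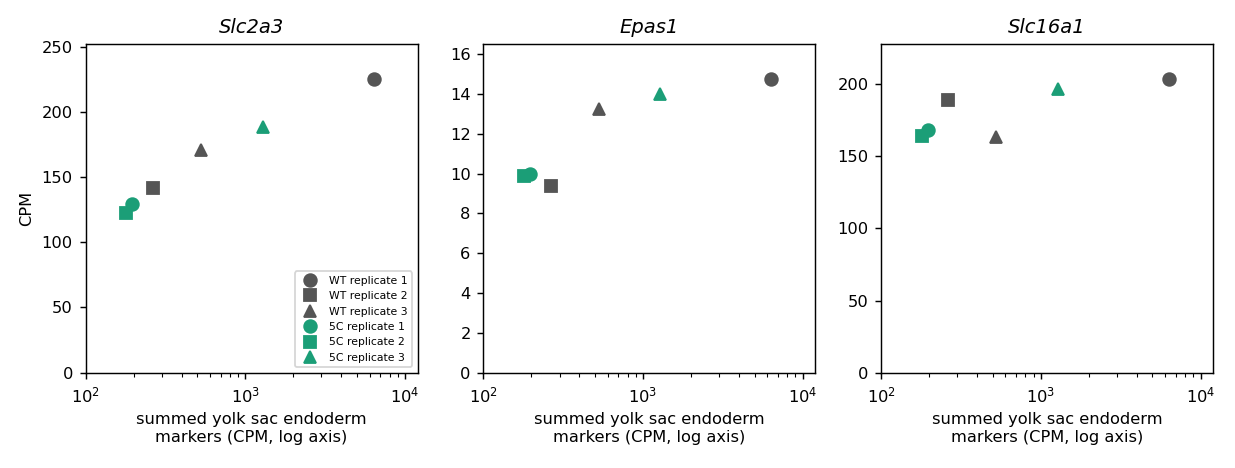
CPM of *Slc2a3*, *Epas1* and *Slc16a1* (vertical axes, from 0) against the summed CPM of 10 yolk sac endoderm markers (log axis), 1 symbol per library. WT replicate 1 (6358 CPM of markers) and 5C replicate 3 (1284 CPM) hold the highest and second highest value of each gene.

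*Slc16a3*, the lactate exporter that hypoxia is known to raise, was the transporter with higher values in 5C, at 85.1 to 117 CPM against 76.0 to 97.3 CPM. These ranges overlapped, with a log2 fold change of 0.22 ± 0.13.

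The 16 glycolytic enzymes were divided evenly, with 8 lower and 8 higher in 5C and a median log2 fold change of 0.01. Their summed level was 3010.0, 3364 and 3041 CPM in WT against 3465, 2977 and 3250.5 CPM in 5C, so that this sum did not separate the genotypes. *Pkm* (mean 937 CPM in WT) and *Ldha* (633 CPM) weighed most in it, and enzymes of low level hardly entered it. In the first steps, the hexokinases that trap glucose as its phosphate were *Hk1* at 30.7, 24.6 and 31.6 CPM in WT against 28.9, 26.5 and 24.0 CPM in 5C, and *Hk2* at 69.2, 77.96 and 84.7 CPM against 79.5, 60.4 and 76.2 CPM. Both overlapped between genotypes, with log2 fold changes of -0.13 ± 0.12 and -0.09 ± 0.11.

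Phosphofructokinase, the committed step of glycolysis, is built from 3 subunits. *Pfkl*, the liver subunit, measured 209, 223 and 211 CPM in WT against 242, 195 and 195 CPM in 5C. *Pfkm*, the muscle subunit, measured 63.8, 64.2 and 69.6 CPM in WT against 66.0, 62.4 and 59.1 CPM in 5C. *Pfkp*, the platelet subunit, measured 42.6, 38.9 and 29.99 CPM in WT against 38.6, 34.9 and 42.3 CPM in 5C. All 3 overlapped, with log2 fold changes between -0.07 and 0.04. Annotated exons of a neighbouring gene on the same strand covered 10.2% of *Pfkm* and 15.3% of *Pkm*, where a read cannot be given to either gene by its position alone.

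In the lower part of the pathway, *Tpi1* measured 329, 341 and 289.7 CPM in WT against 365, 328 and 366 CPM in 5C, with a log2 fold change of 0.14 ± 0.080 and overlapping ranges. *Gapdh* measured 38.5, 51.7 and 49.8 CPM in WT against 48.4, 45.2 and 50.5 CPM in 5C, a log2 fold change of 0.05 ± 0.11. *Pgam1*, which moves the phosphate on phosphoglycerate, was the enzyme that stood apart, at 11.8, 11.7 and 11.8 CPM in WT against 16.5, 14.7 and 16.5 CPM in 5C. Its WT libraries hardly differed, with an SD of 0.065 CPM. That is less than counting error alone would give at 74 to 224 counts, so it does not measure the spread between pools. Every 5C library lay above them, and the fold was 1.36. The log2 fold change was 0.44 ± 0.11 (unadjusted p 0.0029, adjusted p 0.781). It rested on 74 to 273 counts per library, and its largest copy, *Pgam1-ps2*, had 0 counts in all 6, so that reads from the shared 41.8% of its windows were not counted there.

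At the end of the pathway, *Pkm* measured 851, 1046 and 915 CPM in WT against 1035, 879 and 886 CPM in 5C, with a log2 fold change of -0.006 ± 0.096. *Ldha* measured 606, 694 and 598 CPM in WT against 755, 650.5 and 768 CPM in 5C. Its 5C replicate 2 lay below WT replicate 2, so that the ranges overlapped, and the log2 fold change was 0.20 ± 0.089 (unadjusted p 0.0537, adjusted p 0.781). *Ldhb*, the heart-type lactate dehydrogenase subunit, measured 70.7, 80.1 and 67.2 CPM in WT against 73.4, 72.7 and 79.2 CPM in 5C, a log2 fold change of 0.05 ± 0.083. The other enzymes (*Gpi1*, *Aldoa*, *Aldoc*, *Pgk1* and *Eno1*) had log2 fold changes from -0.18 to 0.06, with overlap in all 5.

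The 3 flux regulators all had values above 0, with a median of 0.084. *Pdk1*, the pyruvate dehydrogenase kinase that keeps pyruvate out of the mitochondrial cycle and a known hypoxia target, measured 105, 108 and 99.6 CPM in WT against 143, 121 and 119 CPM in 5C. All 5C libraries lay above all WT libraries, with 5C replicate 1 the highest. Its log2 fold change was 0.29 ± 0.085, a fold of 1.22 (unadjusted p 0.00702, adjusted p 0.781). With no filter on low counts, its adjusted p was 0.0268, with a fold under 1.5. *Pfkfb3*, which makes the sugar phosphate that activates phosphofructokinase, measured 32.7, 36.2 and 33.3 CPM in WT against 38.5, 32.4 and 34.0 CPM in 5C. It overlapped, with a log2 fold change of 0.04 ± 0.094, and *Pfkfb4* had one of 0.08 ± 0.11.

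Among the 6 oxygen-sensing genes, 3 were lower and 3 higher in 5C, and the median log2 fold change was 0.035. *Hif1a* measured 301, 320.4 and 310.1 CPM in WT against 303, 348 and 377 CPM in 5C. Replicates 2 and 3 of 5C lay above all WT libraries and replicate 1 within their range, and the log2 fold change was 0.14 ± 0.084. *Epas1*, the related alpha subunit of endothelium and yolk sac, measured 14.7, 9.36 and 13.2 CPM in WT against 9.999, 9.90 and 14.0 CPM in 5C, a log2 fold change of -0.14 ± 0.20. *Arnt* and *Vhl* differed by -0.07 ± 0.078 and -0.09 ± 0.083 on the log2 scale, with overlap.

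*Egln1*, the main prolyl hydroxylase that reads oxygen and itself a hypoxia target, measured 89.4, 99.3 and 89.2 CPM in WT against 104, 102 and 114 CPM in 5C. The genotypes did not overlap, though the lowest 5C library lay only just above the highest WT library. The log2 fold change was 0.20 ± 0.076 (unadjusted p 0.0245, adjusted p 0.781). *Egln3*, the more inducible hydroxylase, measured 6.35, 6.70 and 4.31 CPM in WT against 6.91, 6.57 and 7.05 CPM in 5C, with a log2 fold change of 0.21 ± 0.18.

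Of the 12 hypoxia-inducible genes, 11 were tested. Of these, 10 had higher values in 5C, with *P4ha2* the exception, and the median log2 fold change was 0.22, against -0.0024 over all genes tested. This count depended on the split by role, as the lists were chosen with earlier results of these data known. Hypoxia-inducible factors also raise genes placed in the other roles. The medians there were -0.15 (transporters), 0.01 (glycolytic enzymes), 0.084 (flux regulators) and 0.035 (oxygen sensing). At an unadjusted p under 0.05 there were 4 of them, all higher (2.55% of all genes tested were), and 6 were higher without overlap (6.26% of all genes tested), while none passed the adjusted test. The count of 4 was 2 without 5C replicate 1 and 2 without 5C replicate 3, and the median was 0.108 without 5C replicate 3. *Car9* was not tested, with 2 to 11 counts per library and 0.142 to 0.577 CPM, and in WT replicate 3 and 5C replicate 3 its level was below that of 3 counts.

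The 2 mitophagy receptors, which mark mitochondria for removal, were both in this group. *Bnip3l* measured 96.4, 102 and 98.9 CPM in WT against 122, 119 and 115 CPM in 5C. The genotypes were well apart, and the log2 fold change was 0.26 ± 0.063, with the smallest p of the 40 genes (unadjusted p 0.00244, adjusted p 0.781). *Bnip3l* is also known for clearing mitochondria from maturing red cells, and the summed level of 11 erythroid markers was 12558, 9292 and 12780 CPM in WT against 16597, 11509 and 8482 CPM in 5C. That sum overlapped between genotypes and was lowest in 5C replicate 3. The part of red cells in the *Bnip3l* values was not tested. *Bnip3* measured 17.1, 20.3 and 16.9 CPM in WT against 23.3, 20.7 and 22.1 CPM in 5C. The lowest 5C value was close to the highest WT value, and the log2 fold change was 0.28 ± 0.11 (unadjusted p 0.029, adjusted p 0.781). Exons of genes on the opposite strand overlapped 22.3% of *Bnip3* and 26.4% of *Ankrd37*.

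*Mxi1*, a repressor that opposes Myc, measured 37.0, 37.3 and 37.5 CPM in WT against 44.3, 45.5 and 44.3 CPM in 5C. The genotypes did not overlap, on 235 to 731 counts per library. The SD of its WT libraries, 0.25 CPM, was also less than counting error alone would give. The log2 fold change was 0.26 ± 0.071 (unadjusted p 0.00451, adjusted p 0.781). *P4ha1*, a collagen prolyl hydroxylase subunit, measured 107, 99.4 and 107 CPM in WT against 124, 109.5 and 131 CPM in 5C. It did not overlap, with a log2 fold change of 0.22 ± 0.080 (unadjusted p 0.0198, adjusted p 0.781). *P4ha2*, its paralog and also a hypoxia target, had a log2 fold change of -0.13 ± 0.12. *Ankrd37*, a small ankyrin-repeat gene and a sensitive hypoxia reporter, measured 4.51, 4.29 and 5.42 CPM in WT against 6.18, 5.89 and 5.84 CPM in 5C. Its ranges were apart, on 34 to 102 counts per library, with a log2 fold change of 0.35 ± 0.16 (unadjusted p 0.0594, adjusted p 0.781).

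*Adm*, the vasodilator peptide adrenomedullin, had the largest log2 fold change of the set, 0.60 ± 0.45, and was the single gene over 1.5-fold, where 3.38% of all genes tested were. It measured 1.68, 2.32 and 3.19 CPM in WT against 2.73, 1.54 and 5.98 CPM in 5C, so that 5C replicate 3 carried the difference. Without that library the value was -0.06. In 5C replicate 3 the summed level of 6 trophoblast markers was also highest, at 9.75 CPM against 0.598 to 4.89 CPM in the other 5 libraries, with 4 of the 6 markers at 0 in at least 1 library. The summed level of 7 decidual and killer cell markers was also highest in 5C replicate 3. It was 10.3, 10.9 and 48.7 CPM in WT against 42.2, 12.5 and 53.8 CPM in 5C. Of these 7 markers, 2 were at 0 in at least 1 library. The part of trophoblast or of decidual tissue in *Adm* was not tested. *Ndrg1*, a stress-responsive gene, measured 8.66, 6.27 and 8.77 CPM in WT against 7.39, 8.62 and 7.97 CPM in 5C, a log2 fold change of 0.02 ± 0.17. *Ddit4*, *Kdm3a* and *Higd1a* had log2 fold changes of 0.15, 0.10 and 0.12.

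Library by library, the median deviation of the hypoxia-inducible genes from their mean was below 0 in the 3 WT libraries (-0.15, -0.087 and -0.0029 log2 CPM) and above 0 in the 3 5C libraries (0.12, 0.014 and 0.12). The glycolytic enzymes did not divide by genotype, at -0.039, 0.063 and -0.041 in WT and 0.084, -0.073 and 0.069 in 5C. The transporters were lowest in 5C replicate 2, at -0.22. The median of all genes tested deviated from 0 by -0.0054 to 0.0031. 5C replicate 1 held the highest value of 11 of the 40 genes tested and 5C replicate 3 that of 10, but 5C replicate 2 that of only 1.

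**Figure D5:**
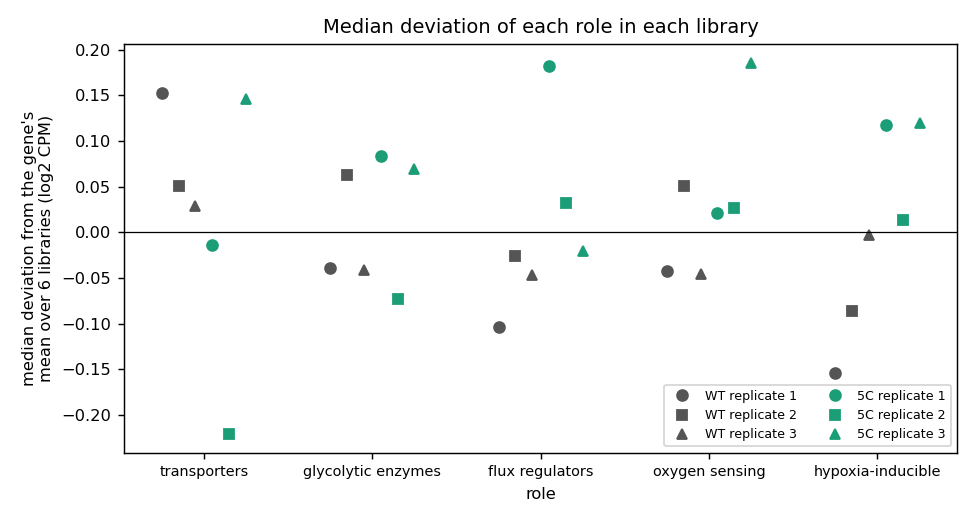
Median deviation of the genes of each role from their own mean over the 6 libraries (log2 CPM), 1 symbol per library, WT grey and 5C green. The hypoxia-inducible genes have the 3 WT libraries below 0 and the 3 5C libraries above it, and the glycolytic enzymes are mixed, from -0.073 to 0.084.

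Where members of the set are paralogs, the share of each in their summed length-scaled level was computed as a family share. Paralogs outside the set were left out, so a share does not show which form the embryo used most. *Aldoa* made up 99.2% of the *Aldoa* and *Aldoc* total, *Hif1a* 96.3% of the alpha subunit pair, and *Egln1* 92.1% of the *Egln1* and *Egln3* total. The last total leaves out *Egln2*, whose exons span 2800 bases and whose mean CPM was 73.8 (WT) and 73.0 (5C). For *Egln1*, with 3594 bases of exon, the means were 92.6 (WT) and 107 (5C). *Slc2a1* held 74.7% against *Slc2a3*, *Slc16a1* 69.4% against *Slc16a3*, *Pfkl* 59.0% of the phosphofructokinase subunits and *Pfkfb3* 57.1% against *Pfkfb4*. *Hk1* held only 20.7% against *Hk2*, and 32.4% when the length of its longest coding transcript was used. *Bnip3* held 23.9% against *Bnip3l*, but 56.8% of its windows were shared with other genes, against 25.5% in *Bnip3l*. Per kilobase of windows found in no other gene, the 2 had 27.1 and 45.4 CPM. The length used also mattered for others. With the longest coding transcripts, *Slc2a1* held 63.5%, and *P4ha1* held 70.8% of its pair instead of 86.8% on average. Those of *Aldoa*, *Hif1a* and *Egln1* were then 99.5%, 97.0% and 92.1%.

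Of the 13 shares compared, those of *Ldha* and *P4ha1* did not overlap between genotypes. *Ldha* made up 80.3%, 80.4% and 80.86% of its pair with *Ldhb* in WT and 83.0%, 80.92% and 82.1% in 5C, a mean difference of 1.502 percentage points. The highest WT and the lowest 5C share thus nearly touched. Other genes shared 25.2% of the windows of *Ldha* and 34.3% of those of *Ldhb*. *P4ha1* made up 84.7%, 85.8% and 85.8% of its pair in WT and 89.7%, 86.8% and 87.9% in 5C, a mean difference of 2.69 points. Both kept these signs without each library in turn. Each had a p of 0.1 in a two-sided exact permutation test, the smallest that 3 libraries against 3 allow, and 0.65 adjusted over the 13 shares.

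Other genes of the same pathways were counted from wider lists. Of 39 further genes of glycolysis and its branches, 35 were tested, with 20 lower and 15 higher in 5C, and 1 was lower at an unadjusted p under 0.05, where 3.47% of all genes tested were. This was *Hkdc1*, a hexokinase-like gene, at 16.3 CPM in WT replicate 1 and 0.854 to 2.35 CPM in the other 5 libraries, so that the library richest in yolk sac markers set its value. The next smallest p-values were those of *Pdk2* (log2 fold change -0.83), *Pdp1* (0.18) and *Gbe1* (0.18). Of 40 further hypoxia genes, all tested, 15 were lower and 25 higher, with a median of 0.034, while 50.7% of all genes tested were lower and their median was -0.0024. At an unadjusted p under 0.05 there were 4 of the 40, all higher, against 2.55% of all genes tested. They were *Pnrc1* (log2 fold change 0.35 ± 0.085, unadjusted p of 0.00218), *Mif* (0.21), *Kdm4c* (0.19) and *Tfrc*, the transferrin receptor (0.26). None of the 75 genes tested from both lists passed the adjusted test, the smallest adjusted p being 0.781.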

How the data were processed

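Poly(A)-selected stranded libraries were sequenced by the authors as single 40-base reads and aligned with STAR to GRCm38. The gene-level counts also came from STAR. The deposited values were raw read counts per Ensembl gene, not normalized; the strand column used was not given in the sources used here. Genotype and replicate came from the sample titles. Of 55401 identifiers, 55141 matched the annotation. A second identifier named *Aldoa* (21 to 70 counts per library) was left out. The members and gene lists were chosen with earlier results of these data known.

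Counts were filtered by filterByExpr, scaled by TMM and tested with edgeR 4.0.16 (quasi-likelihood F-test, legacy form, two-sided, Benjamini-Hochberg adjustment over all genes tested) in R 4.3.3. CPM used TMM-scaled totals, and RPKM the union of annotated exons. The standard error was the log2 fold change divided by the square root of F. Family shares were compared by exact permutation tests. Shared 40-base windows were counted over annotated transcripts, not the genome. Library pairs differed by at least 3.78 in chi-square per gene, so each counted as 1 replicate; whether pools came from separate litters was not given, so p-values measure the spread between pools. Depth floors cover counting error only. The scripts were tested on simulated counts. Values are given in full for the 12 genes with the smallest p and for others named by role, and for the 4 smallest p of each wider list. Alternatives were DESeq2 1.42.0, limma 3.58.1 (voom), other scaling, filters, GC offsets, a replicate block and leaving out libraries.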

Additional observations from a re-analysis of the deposited data

How the results depend on the processing

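Over 13 alternatives of scaling, filter, test and design, and leaving out each library, no gene of the set passed the call rule. The number of all genes called, 0 by edgeR (1011 at an unadjusted p under 0.05), was 319 with no count filter, 11 with DESeq2, 3 with robust moderation and 0 to 1 without a library. The number of set genes at an unadjusted p under 0.05, 8, was 13 with no filter and 5 to 10 without a library. The number lower, 1, was 3 with no filter, 0 with GC-content offsets, 0 with the replicate block and GC offsets, 0 without replicate 2 of both genotypes and 0 to 2 without a library; the number higher was 4 to 10. The set median was 0.148 without replicate 2 of both genotypes. For the hypoxia-inducible genes, the values without a library were an alternative chosen after seeing the data. The number higher at an unadjusted p under 0.05 was then 2 to 5. The number with a log2 fold change above 0 was 9 to 10, and the median was 0.108 to 0.247. The median level, 14.7 RPKM, was 22.1 with the longest coding transcript, which moved 18 genes by over 1.5 times. Spearman's rho of log2 fold change with transcript GC content was -0.312 over 16770 genes, as a description.

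Signs turned mostly for genes near 0, but without 5C replicate 3 also for *Adm*, whose main log2 fold change was 0.60. Without replicate 2 of both genotypes, *Hk2* was 0.024 and *Ndrg1* -0.18. *Pfkl* was 0.045 with GC offsets, 0.044 with block and GC offsets and 0.061 without replicate 2. *Pkm* was 0.012 by library size, 0.00817 with no filter, 0.057 with GC offsets, 0.0661 with block and GC offsets and 0.12 without replicate 2. Without a library the log2 fold changes ran from -0.055 to 0.91 for *Adm*, -0.052 to 0.11 for *Aldoa*, -0.32 to 0.031 for *Epas1*, -0.079 to 0.14 for *Gapdh*, -0.17 to 0.0037 for *Gpi1*, -0.17 to 0.0105 for *Hk2*, -0.0099 to 0.12 for *Ldhb*, -0.12 to 0.12 for *Ndrg1*, -0.039 to 0.086 for *Pfkfb3*, -0.13 to 0.033 for *Pfkl*, -0.086 to 0.15 for *Pfkp*, -0.049 to 0.25 for *Pgk1*, -0.086 to 0.081 for *Pkm* and -0.16 to 0.0018 for *Slc16a1*. Share differences, in points, ran from -1.64 to 1.22 for *Hk1*, -0.62 to 1.23 for *Pfkl*, -1.73 to 0.107 for *Pfkm*, -0.136 to 0.783 for *Pfkp*, -1.66 to 3.40 for *Slc2a1*, -0.751 to 0.565 for *Egln1*, -0.187 to 1.18 for *Bnip3* and -1.60 to 0.163 for *Pfkfb3*. The cause was not tested.

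Deviations of same-numbered libraries correlated at -0.174, 0.202 and -0.166, so the numbers were not taken as pairs. With the replicate block, 0 genes were called, 7 genes of the set had an unadjusted p under 0.05 (782 of all genes), and the hypoxia-inducible median was 0.22.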
